A study of Mus musculus with 6 samples.

Results

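The genes described are 9 receptors through which soluble growth factors act on blood-forming cells: *Kit*, *Flt3*, *Csf1r*, *Epor*, *Csf3r*, *Csf2ra*, *Il3ra*, *Csf2rb* and *Csf2rb2*. They were chosen by name, with earlier results of these data known, and each matched 1 row of the 34745 genes in the deposited tables. Of these 9 receptors, 8 had enough counts to be tested between groups, and *Csf1r* did not.

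Bulk RNA-seq was carried out on hematopoietic stem cells (HSCs) sorted from the bone marrow of adult C57BL/6 mice, in 3 WT and 3 *Med23*-deficient (KO) libraries. Med23 is a subunit of the mediator complex, which links transcription factors to RNA polymerase II. The WT libraries carry the genotype label WT(Med23floxp/flowp) and the KO libraries KO(Mx1-cre;Med23floxp/flowp), so that the floxed *Med23* allele was common to both groups. Cre is driven by the interferon-responsive *Mx1* promoter and is induced with poly(I:C). That promoter is not restricted to blood cells, and the labels do not state whether the WT animals were also injected. For its blood counts the study sampled both WT and KO mice after poly(I:C) administration. Cells were gated as CD150+CD34-CD48- LSK (lineage-negative, Sca1-positive, cKit-positive), so the protein product of *Kit* was itself part of the gate. The labels do not say that libraries came from separate animals. The p-values therefore measure the spread between these libraries. Sex-linked genes, given with the library checks, set replicate 3 of each group apart. That library was thus not a technical repeat of replicates 1 and 2 of its group, whereas the spread between replicates 1 and 2 may be technical.

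The receptors fall into structural classes. *Kit* (receptor of stem cell factor), *Flt3* (receptor of Flt3 ligand) and *Csf1r* (receptor of M-CSF and IL-34) encode receptor tyrosine kinases, which phosphorylate themselves when a dimeric ligand joins a pair of them. *Epor* (erythropoietin) and *Csf3r* (G-CSF) encode cytokine receptors that act as homodimers. These receptors have no kinase domain, so that they signal through bound JAK kinases and the STAT factors. *Csf2ra* (GM-CSF) and *Il3ra* (IL-3) encode ligand-binding alpha chains, which signal with the common beta chain encoded by *Csf2rb* or, for IL-3 in the mouse, with the closely related chain encoded by *Csf2rb2*. KIT signalling maintains HSCs, FLT3 marks multipotent and lymphoid-primed progenitors, and the receptors of erythropoietin, G-CSF, GM-CSF and M-CSF are best known from erythroid and myeloid cells.

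Promoters were read for 7 of the 9 receptors from the RefSeq promoter table of GRCm38.p6, and none was read for *Csf1r* and *Csf2rb*. The 250 bases before each start site were searched on both strands for AGATAA (the core bound by GATA factors), GAGGAA (PU.1), TGTGGT (RUNX), GGGCGG (GC box) and GCGTGGGCG (EGR). These letters were found in 9.99%, 23.3%, 14%, 32.7% and 0.536%, respectively, of the 32851 promoters in that table. The promoters of *Epor*, *Kit* and *Csf2rb2* are shown here, 5′ to 3′ on the strand of the gene, because these were the receptors whose WT and KO libraries did not overlap. Capitals mark GATA, PU.1 and RUNX matches on either strand. The *Epor* window lies at chr9:21963577-21963826 (minus strand) and the *Csf2rb2* window at chr15:78305722-78305971 (minus strand). The *Kit* window (chr5:75574737-75574915, plus strand) was cut to 179 bases where the GENCODE transcript begins.
*Epor*: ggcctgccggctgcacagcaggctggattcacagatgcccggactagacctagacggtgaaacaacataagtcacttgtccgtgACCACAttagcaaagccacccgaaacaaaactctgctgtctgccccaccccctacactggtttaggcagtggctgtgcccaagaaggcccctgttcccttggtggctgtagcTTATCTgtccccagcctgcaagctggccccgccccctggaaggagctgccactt
*Kit*: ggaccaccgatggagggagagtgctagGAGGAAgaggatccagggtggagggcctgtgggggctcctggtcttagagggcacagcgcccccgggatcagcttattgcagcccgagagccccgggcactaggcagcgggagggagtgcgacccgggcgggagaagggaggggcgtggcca
*Csf2rb2*: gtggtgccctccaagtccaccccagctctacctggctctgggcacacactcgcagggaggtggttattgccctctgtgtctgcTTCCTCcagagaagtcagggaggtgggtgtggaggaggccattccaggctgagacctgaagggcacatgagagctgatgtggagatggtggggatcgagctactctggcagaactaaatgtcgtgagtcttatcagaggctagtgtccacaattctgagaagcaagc

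The *Epor* promoter was the only one of the 7 with a GATA match, 54 bases before the start, and the only one with a RUNX match, 166 bases before it. A GC box lay 26 bases before the *Epor* start. PU.1 letters were found once in *Kit* (223 bases before the RefSeq start), *Csf2rb2* (167) and *Csf3r* (86). *Csf2ra* had 2 adjacent PU.1 matches, 14 and 8 bases before its start. *Il3ra* had 5 GC boxes, some of which overlap, and *Flt3* had no match to any of the 5 motifs. As for *Kit*, the GENCODE gene begins before the RefSeq start, leaving 141 bases for *Csf3r*, 239 for *Csf2ra* and 30 for *Il3ra*. The *Csf3r* match, the *Csf2ra* match at 8 and all *Il3ra* GC boxes except that at 235 lie inside the GENCODE gene. The *Csf2ra* match at 14 spans its start. A match describes the letters in these windows and not a bound site.

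Before the receptors were compared, the libraries were checked. Counts per library were between 3537269 and 8131344, and 3 counts, the smallest signal treated as detected, came to 0.369 CPM in the deepest library and 0.927 CPM in the shallowest. Normalized CPM is a count scaled to sequencing depth, with the library sizes adjusted by edgeR's TMM method. At *Med23*, the WT libraries had 47.6, 70.8 and 24.1 CPM and the KO libraries 31.6, 29.8 and 36.8 CPM. The library labelled WT replicate 3 therefore had less *Med23* than any KO library. It also had the fewest counts, and the noncoding genes *Gm26917* and *Gm42418* took 18.1% of them, against 6.11% to 11.96% in the other 5 libraries. Replicate 3 of both groups differed from the rest in sex-linked genes, with 1 and 0 counts over 4 Y-linked genes against at least 1036 elsewhere. *Xist* had 4819 counts in WT replicate 3 and 7853 in KO replicate 3, against at most 111 elsewhere, so that these libraries were female-like. Values were therefore also computed within replicates 1 and 2 and within replicate 3. Of the markers of the gate, *Ly6a* (Sca1), *Kit* and *Slamf1* (CD150) were counted in all 6 libraries and *Cd48* at 28 counts or fewer. *Cd34*, which the gate should leave low at the protein, was counted at 1109 to 2930 reads. *Slamf1* had 68 counts in WT replicate 3 and 136 to 740 elsewhere.

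To rank the receptors in WT HSCs, the deposited FPKM values, which divide counts by gene length, were used. *Kit* was highest at 65.3 ± 8.27 FPKM (SD, n = 3), at the 94.9th percentile of the genes tested, followed by *Csf2ra* at 56.9 ± 5.05 FPKM (93.8th percentile). *Csf3r* followed at 20.4 ± 9.60, *Il3ra* at 14.6 ± 4.76, *Csf2rb* at 13.8 ± 0.92, *Epor* at 13.5 ± 9.98, *Csf2rb2* at 9.72 ± 0.88 and *Flt3* at 9.02 ± 2.47 FPKM. *Csf1r* was last at 0.718 ± 1.02 FPKM, with 0 counts in 1 of the 3 libraries. Of the 8 neighbouring pairs in this order, 2 had ranges that did not overlap, *Csf2ra* above *Csf3r* and *Flt3* above *Csf1r*. The ranges of the other 6 pairs overlapped, although *Csf3r* was above *Il3ra* within each of the 3 libraries, and both were lowest in WT replicate 3. *Kit* was above *Csf2ra* in 2 of 3 WT libraries, and *Epor* ranked 7, 8 and 3 in WT replicates 1 to 3.

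The order also depended on the length used. The FPKM table implies 12.958 kb for *Kit*, whereas its longest-coding GENCODE M21 transcript has 5.214 kb. For *Flt3* these lengths were 6.176 and 3.657 kb, and for *Il3ra* 1.394 and 2.315 kb. All GENCODE exons of a gene together span 8.911 kb for *Kit*, 6.176 kb for *Flt3* and 2.967 kb for *Il3ra*. Per kb of the longest-coding transcript, *Kit* was at 162 ± 20.6 on the same scale as FPKM (SD, n = 3) and did not overlap *Csf2ra*, which stayed at 56.9. *Flt3* moved from rank 8 to rank 4 and *Il3ra* from rank 4 to rank 8, while *Kit*, *Csf2ra*, *Csf3r*, *Csf2rb2* and *Csf1r* kept ranks 1, 2, 3, 7 and 9. This second length was chosen after the implied lengths had been seen. It is that of 1 transcript, whereas the counts are of reads on the whole gene.

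**Figure D1:**
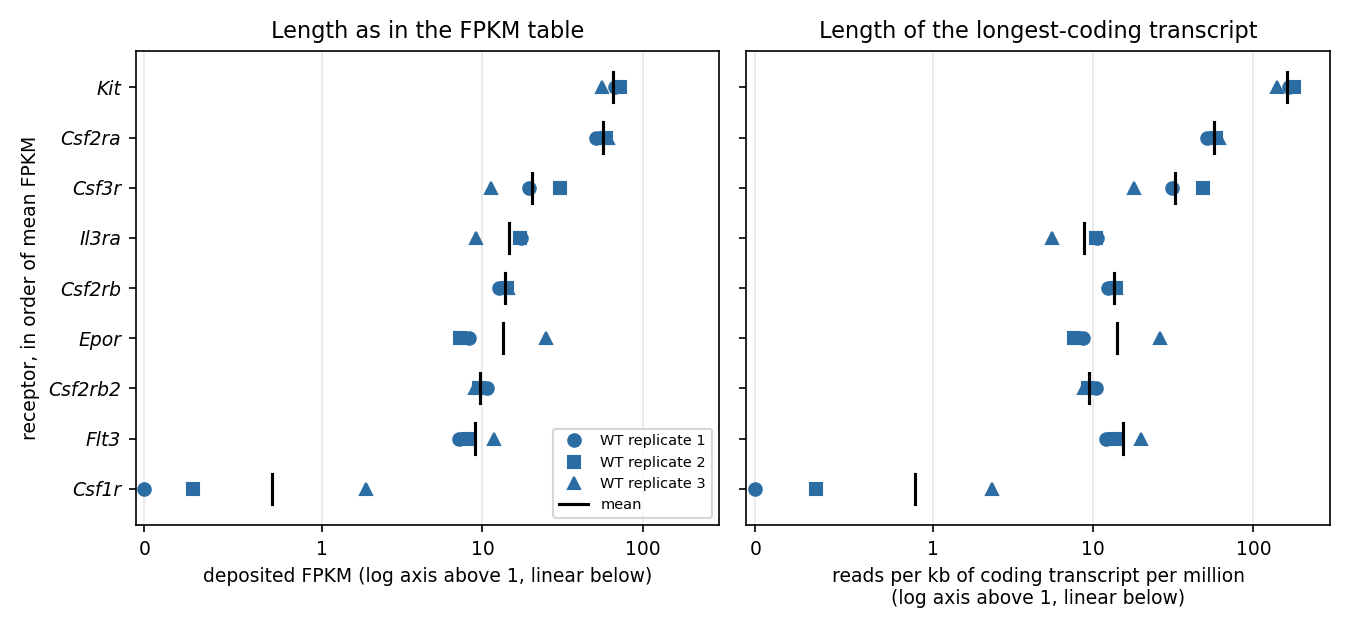
Level of each receptor in the 3 WT libraries on the deposited FPKM scale (left) and per kb of the longest-coding transcript (right, otherwise scaled as FPKM), with receptors in the order of mean FPKM and black bars at the mean. *Kit* and *Csf2ra* lead on both scales, *Flt3* lies further up on the right, and the *Epor* mean is raised by 1 library at 25.04 FPKM against 8.29 and 7.26.

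In KO HSCs the order by FPKM was *Csf2ra* (54.3 ± 12.6), *Kit* (51.9 ± 8.30), *Csf3r* (22.6 ± 4.29), *Csf2rb* (18.4 ± 3.31), *Il3ra* (17.5 ± 0.65), *Csf2rb2* (16.4 ± 4.19), *Flt3* (10.6 ± 5.25), *Epor* (2.93 ± 0.83) and *Csf1r* (0.315 ± 0.31), each as mean and SD of 3 libraries. *Epor* ranked 8 in every KO library. Its range did not overlap that of *Flt3* above it or that of *Csf1r* below it.

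To find whether loss of Med23 changed the receptors, KO was compared with WT across all genes with edgeR's quasi-likelihood test. None of the 8 tested receptors passed an adjusted p of 0.05, where 9 of 12513 genes did (0.0719%), and none passed with DESeq2, where 120 genes did (0.959%). At an unadjusted p under 0.05 there were 2 receptors, *Epor* lower and *Csf2rb2* higher in KO, beside 5.71% of all genes. In normalized CPM the 3 KO libraries lay entirely below the 3 WT libraries for *Epor* and *Kit* and entirely above them for *Csf2rb2*, which is 3 of 8 receptors, beside 12.4% of all genes. An exact permutation test of 3 libraries against 3 cannot give a p below 0.1. In bulk RNA, fewer cells that express a receptor and less RNA per cell cannot be told apart.

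**Figure D2:**
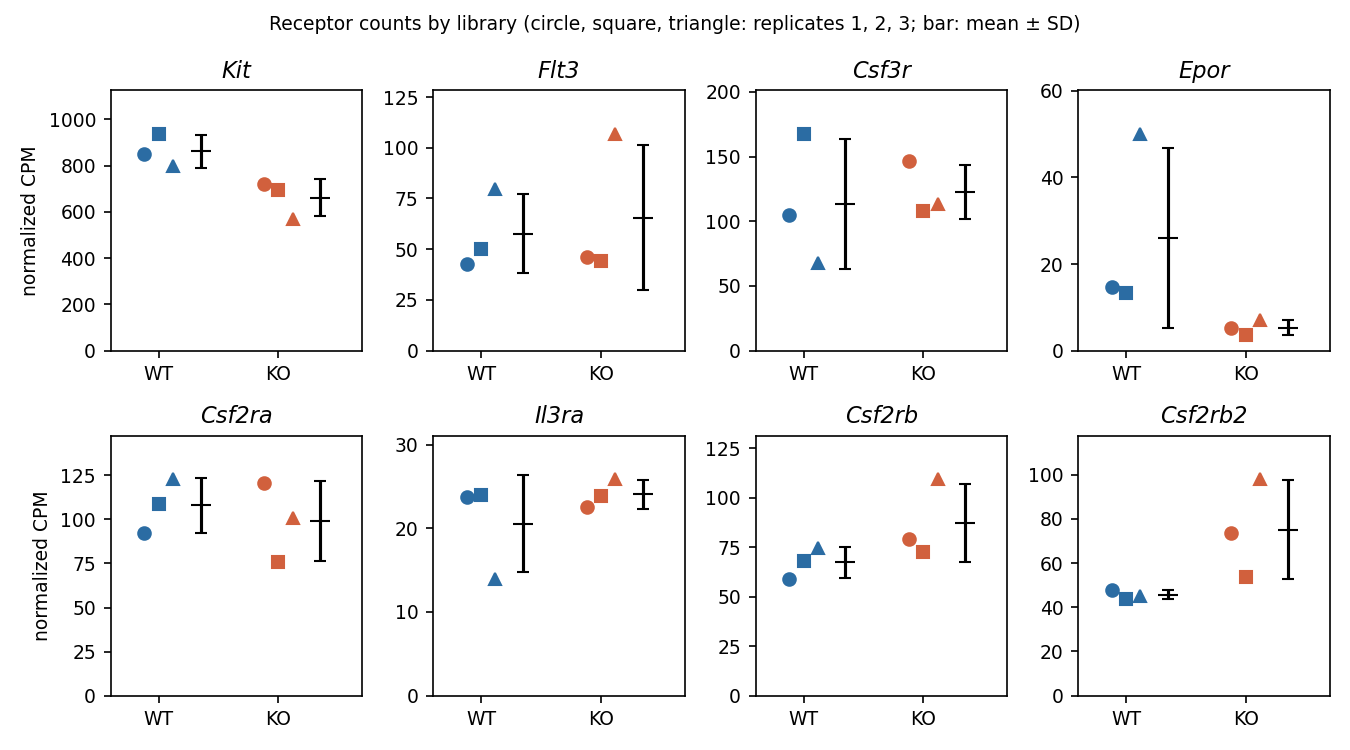
Normalized CPM of the 8 tested receptors in each WT and KO library (circles, squares and triangles are replicates 1, 2 and 3), with mean ± SD beside the points (n = 3) and each axis starting at 0. *Kit* and *Epor* are lower and *Csf2rb2* higher in every KO library, and replicate 3 is the extreme library of its group for *Flt3* in both groups.

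*Epor* (ENSMUSG00000006235, chromosome 9 from 21958897 to 21963506, minus strand), the receptor that erythroid progenitors need to survive, showed the largest difference among the receptors. The WT libraries had 14.8, 13.3 and 50.1 CPM and the KO libraries 5.27, 3.64 and 7.08 CPM, in the order of replicates 1 to 3. The lowest WT library was above the highest KO library, and WT replicate 3 stood far above the other WT libraries. In reads this was 72, 108 and 162 against 26, 20 and 35. The mean was 26.0 ± 20.8 CPM in WT and 5.33 ± 1.72 CPM in KO (SD, n = 3). The log2 fold change was -2.28 (standard error 0.66, 95% interval -3.75 to -0.81), with an unadjusted p of 0.0061 and an adjusted p of 0.48 in edgeR. Without WT replicate 3 it was -1.39, so that 1 library set much of its size, and the adjusted p over all 15 edgeR, DESeq2 and limma alternatives lay between 0.070 and 0.92.

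Genes of erythroid cells were examined beside *Epor*. The erythroid transcription factor *Klf1* had 32, 24 and 52 counts in WT and 11, 7 and 18 in KO, a log2 fold change of -1.82 (edgeR adjusted p = 0.93). *Gata1*, whose product binds the GATA motif, had 24, 177 and 43 counts in WT and 29, 28 and 46 in KO, a log2 fold change of -0.98 (edgeR adjusted p = 0.99). *Gata2*, a GATA factor gene with more reads, was at 234 CPM in WT and 238 CPM in KO on average (log2 fold change 0.023, edgeR adjusted p = 0.997). Both *Klf1* and *Epor* were highest in WT replicate 3. Markers of maturing red cells were mixed. *Slc4a1* had no count and *Hba-a1* at most 5 in any library, whereas the adult globin gene *Hbb-bt* had 108, 216 and 130 counts in WT and 134, 132 and 262 in KO, a log2 fold change of 0.23 (edgeR adjusted p = 0.997). Of the 16 erythroid markers 8 were tested, with 6 estimates lower and 2 higher in KO, a median log2 fold change of -0.55, and none past the threshold. Their summed level, most of it *Car2*, was 1320 to 1727 CPM in WT and 1143 to 1398 CPM in KO. The part of these markers in the *Epor* difference was not tested.

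*Kit* (ENSMUSG00000005672, chromosome 5 from 75574916 to 75656722, plus strand) had by far the most reads of the receptors, with 4146, 7624 and 2576 in WT and 3555, 3807 and 2817 in KO. On the normalized scale it was at 850, 937 and 796 CPM in WT and at 720, 693 and 570 CPM in KO. Every KO library was below every WT library, with means of 861 ± 71.0 and 661 ± 80.0 CPM (SD, n = 3). The log2 fold change was -0.38 (standard error 0.18, 95% interval -0.78 to 0.02), with an adjusted p of 0.91 in edgeR. The separation depended on the scaling, because on the FPKM scale WT replicate 3 at 56.2 lay below KO replicate 1 at 57.6. *Ly6a*, which encodes the other positive marker of the LSK gate, was also lower in every KO library, with a log2 fold change of -0.78 (edgeR adjusted p = 0.70), and *Slamf1* was at -0.77 (edgeR adjusted p = 0.99) with groups that overlapped. *Cd34*, the marker that the gate leaves out, went the other way without overlap, from 333 CPM in WT to 439 CPM in KO on average (log2 fold change 0.40, edgeR adjusted p = 0.92). Of the 5 tested genes in the list of sort markers, which also holds *Flt3*, 2 had higher and 3 lower estimates.

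*Flt3* (ENSMUSG00000042817, chromosome 5 from 147330741 to 147400489, minus strand) was counted at 42.9, 50.1 and 79.7 CPM in WT and at 46.0, 44.0 and 106.8 CPM in KO. Replicate 3 was the highest library in both groups, and the groups overlapped. On the log2 scale the fold change was 0.19 (95% interval -0.72 to 1.10, edgeR adjusted p = 0.997), and without KO replicate 3 it was -0.35. The interval covers both a lower and a higher level in KO. The ratio of *Kit* to *Flt3* in FPKM was 9.45, 8.91 and 4.76 in WT and 7.46, 7.498 and 2.54 in KO, and did not separate the groups (exact permutation p = 0.5, two-sided).

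*Csf1r* (ENSMUSG00000024621, on chromosome 18), which defines monocytes and macrophages, had 0, 13 and 39 counts in WT and 0, 19 and 10 in KO. Replicate 1 of both groups was at 0, which allows up to 0.615 CPM in WT and 0.608 CPM in KO by a limit of 3 counts that covers counting error only. Without a filter on low counts its log2 fold change was -1.25 with a standard error of 1.69 (edgeR adjusted p = 0.87), so the spread between libraries was larger than the difference. The 39 counts were in the WT library with the fewest reads, and the 13 counts in the one with the most. It shares 873 exon bases with *Hmgxb3* on the other strand, and without a stated strand setting reads from these bases cannot be told apart.

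*Csf3r* (ENSMUSG00000028859, chromosome 4 from 126024550 to 126044440, plus strand), the receptor that drives neutrophil production, varied more within WT than between groups. It was at 105, 168 and 68.0 CPM in WT and at 146, 108 and 114 CPM in KO, with all 3 KO libraries inside the range of WT. Its log2 fold change was 0.11 (95% interval -0.61 to 0.83, edgeR adjusted p = 0.997), and leaving out WT replicate 3 turned it to -0.15.

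*Csf2ra* (ENSMUSG00000059326, chromosome 19 from 61223957 to 61228429, minus strand) was at 92.3, 109 and 123 CPM in WT and at 121, 75.9 and 101 CPM in KO. The groups overlapped, and the log2 fold change was -0.12 (95% interval -0.70 to 0.45, edgeR adjusted p = 0.997). Without KO replicate 2 it was 0.04. *Il3ra* (ENSMUSG00000068758, chromosome 14 from 14346275 to 14356011, plus strand) was at 23.8, 24.0 and 13.9 CPM in WT and at 22.5, 23.8 and 25.9 CPM in KO. WT replicate 3 was the low library, and the other 5 lay within a narrow range. The log2 fold change of *Il3ra* was 0.22 (95% interval -0.70 to 1.15, edgeR adjusted p = 0.997). *Il3ra* shares 46 exon bases with the antisense gene *Gm48860*.

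*Csf2rb* (ENSMUSG00000071713, chromosome 15 from 78325752 to 78353847, plus strand) and *Csf2rb2* (ENSMUSG00000071714, chromosome 15 from 78282507 to 78305721, minus strand) lie side by side and are near-copies, each sharing 62 exon bases with a miRNA gene. Their coding sequences, of 2688 and 2634 bases in GENCODE M21, were identical at 2503 of 2628 aligned bases (95.2%). The longest identical run was 242 bases, at coding positions 2083 to 2324 of both genes, counted from 1 at the first base of the start codon. It lies in exon 15 of the *Csf2rb* transcript (chr15:78348577-78348818) and exon 14 of the *Csf2rb2* transcript (chr15:78284630-78284871) and is printed because a read inside it fits both genes.
Shared run: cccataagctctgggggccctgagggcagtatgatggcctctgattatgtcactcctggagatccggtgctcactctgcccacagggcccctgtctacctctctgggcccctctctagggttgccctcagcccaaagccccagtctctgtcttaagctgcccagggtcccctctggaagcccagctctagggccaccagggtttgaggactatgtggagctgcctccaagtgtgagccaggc

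The copies can be told apart elsewhere. The ungapped 90-base stretch with most differences is printed next, at coding positions 308 to 397 of *Csf2rb* (exon 5, chr15:78338897-78338986) and 311 to 400 of *Csf2rb2* (exon 4, chr15:78294345-78294434), with the 16 bases that differ in capitals.
*Csf2rb*: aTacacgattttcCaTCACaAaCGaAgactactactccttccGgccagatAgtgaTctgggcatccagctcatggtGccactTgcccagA
*Csf2rb2*: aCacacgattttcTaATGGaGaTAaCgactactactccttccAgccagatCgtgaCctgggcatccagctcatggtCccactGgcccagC

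Of all 50-base stretches of the transcripts, 18.4% of those in *Csf2rb* also occur in *Csf2rb2*, and at 150 bases 3.47% do. The read length of these libraries is not given in the sources used here, so the split of counts between the copies is uncertain by an amount that was not measured.

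*Csf2rb* was at 59.0, 68.0 and 74.8 CPM in WT and at 79.2, 72.4 and 109 CPM in KO, means of 67.3 ± 7.89 and 87.0 ± 19.7 CPM (SD, n = 3). KO replicate 2 lay just below WT replicate 3, whereas on the FPKM scale all 3 KO libraries were above WT. For *Csf2rb* the log2 fold change was 0.37 (95% interval -0.23 to 0.98, edgeR adjusted p = 0.99). *Csf2rb2* was at 48.0, 43.9 and 45.1 CPM in WT and at 73.7, 53.7 and 98.1 CPM in KO, means of 45.7 ± 2.10 and 75.2 ± 22.3 CPM (SD, n = 3). All 3 KO libraries were above the WT libraries, which were close together, and KO replicate 3 was the highest. The log2 fold change of *Csf2rb2* was 0.72 (standard error 0.31, 95% interval 0.04 to 1.40), with an unadjusted p of 0.041 and an adjusted p of 0.84 in edgeR. Without KO replicate 3 it was 0.48.

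Because a read that fits both copies may be counted on either, the beta chains were also summed. Such reads may also have been left out of both counts, and the sum and its ratios do not restore them. Their sum was 107, 112 and 120 CPM in WT and 153, 126 and 208 CPM in KO, higher in every KO library, with a log2 difference of 0.49 (exact permutation p = 0.1, two-sided, the smallest possible). The ratio of *Csf2rb2* to *Csf2rb* in FPKM was 0.84, 0.67 and 0.62 in WT and 0.96, 0.77 and 0.93 in KO and overlapped between the groups (exact permutation p = 0.2, two-sided). The ratio of the alpha chain *Csf2ra* to the sum of the beta chains was 2.19, 2.47 and 2.61 in WT and 2.00, 1.53 and 1.23 in KO. It was lower in every KO library, with a log2 difference of -0.64 (exact permutation p = 0.1, two-sided). The ratio of *Il3ra* to that sum overlapped (0.621 ± 0.20 in WT and 0.517 ± 0.11 in KO, exact permutation p = 0.6, two-sided, n = 3 in each group). With Benjamini-Hochberg adjustment none of these ratios could pass 0.05, since the smallest unadjusted p was 0.1.

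**Figure D3:**
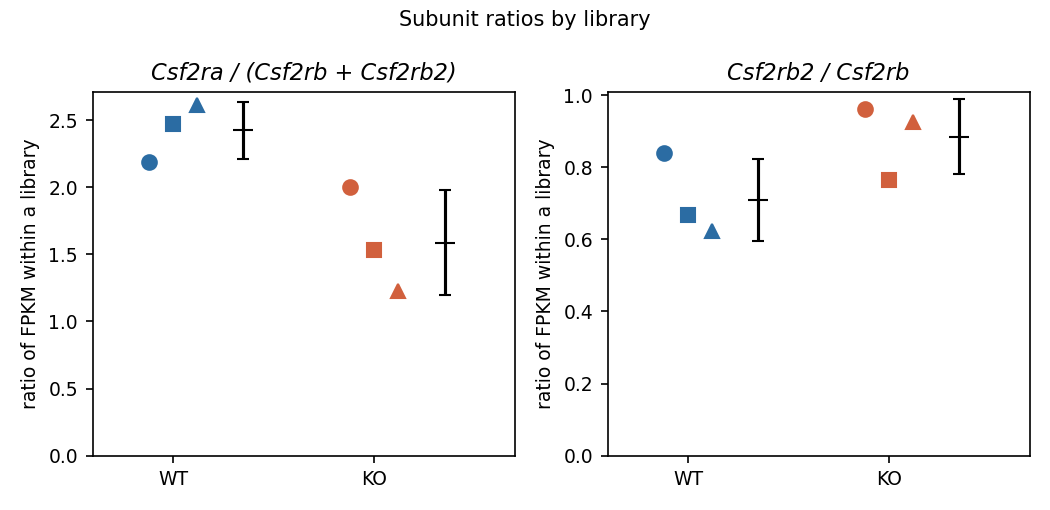
Ratios of FPKM between receptor chains within each library (circles, squares and triangles are replicates 1, 2 and 3), with mean ± SD beside them (n = 3) and axes starting at 0. The ratio of the GM-CSF receptor alpha chain to both beta chains is 2.19 to 2.61 in WT and 1.23 to 2.00 in KO, whereas the ratio of the beta chains to each other overlaps.

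The differences were then computed by replicate number, since replicate 3 of both groups stood apart. The log2 difference of *Epor* was -1.57 within replicates 1 and 2 and -2.74 within replicate 3, and that of *Kit* was -0.34 and -0.48. For *Csf2rb2* these values were 0.45 and 1.11 and for *Csf2rb* 0.26 and 0.55. These 4 receptors thus had the same direction in both parts of the data. *Flt3* (-0.04 and 0.42), *Csf3r* (-0.07 and 0.74) and *Il3ra* (-0.04 and 0.87) were close to 0 within replicates 1 and 2 and higher in KO within replicate 3 alone, while *Csf2ra* was at -0.06 and -0.29. With 1 library per group in replicate 3, these values have no test.

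**Figure D4:**
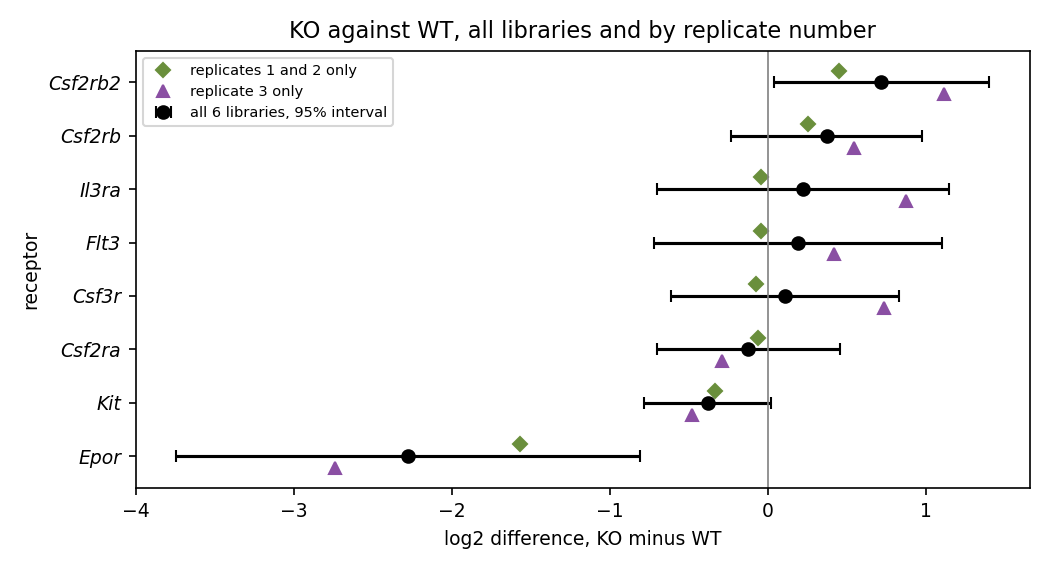
Log2 difference of each tested receptor, KO minus WT, as the edgeR estimate over all 6 libraries with its 95% interval (black), within replicates 1 and 2 (diamonds) and within replicate 3 (triangles). The *Epor* interval lies below 0 and the *Csf2rb2* interval above it before adjustment, and for *Il3ra*, *Csf3r* and *Flt3* the replicate 3 value lies apart from the other replicates.

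The genes around the receptors were described in lists. Of 9 ligands, *Csf2*, *Csf3* and *Il3* had no count in any library, and 2 could be tested. *Flt3l*, the ligand of *Flt3*, was at 16.2, 26.2 and 11.4 CPM in WT and at 38.1, 45.3 and 38.9 CPM in KO. All KO libraries were above all WT libraries, with a log2 fold change of 1.17 (standard error 0.42, edgeR adjusted p = 0.70). *Csf1* was at 0.22 (edgeR adjusted p = 0.997), and *Kitl* and *Epo* had at most 1 and 3 counts. Of 26 other cytokine receptors 18 were tested, 11 with higher and 7 with lower estimates in KO. The IL-6 receptor gene *Il6ra* was lower in every KO library, at 43.5, 35.3 and 42.3 CPM in WT and 16.2, 10.6 and 23.5 CPM in KO (log2 fold change -1.27, edgeR adjusted p = 0.62). *Il10ra*, a receptor chain of IL-10, was at 1.33 (edgeR adjusted p = 0.98) with groups that overlapped.

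Of 32 genes of proximal signalling (kinases, STAT factors, adaptors and phosphatases) 31 were tested, 18 with higher and 13 with lower estimates, and the median log2 fold change was 0.09 against -0.0054 over all genes. The largest differences in this list were in the ubiquitin ligase gene *Cblb* (1.07, edgeR adjusted p = 0.81) and the Ras exchange factor gene *Sos2* (1.05, edgeR adjusted p = 0.77), both with groups that overlapped. Of 15 genes that cytokine signals induce or that damp them, such as SOCS, PIM and Sprouty genes, 13 had higher and 2 lower estimates, with a median of 0.40. *Pim2*, a kinase gene induced through STAT5, was at 146, 102 and 59.0 CPM in WT and at 282, 209 and 241 CPM in KO, without overlap. Its log2 fold change was 1.25 (standard error 0.31, unadjusted p = 0.0023, adjusted p = 0.36 in edgeR). *Spred1*, a damper of Ras signalling, was at 0.63 (edgeR adjusted p = 0.99), and none of the 15 genes passed the threshold. The summed level of this list was 909 to 1052 CPM in WT and 1175 to 1391 CPM in KO.

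Of 14 transcription factor genes known to act on receptor genes 13 were tested, 9 with higher and 4 with lower estimates and a median of 0.15. *Irf8*, a factor of monocytes and dendritic cells, was at 3.49, 23.6 and 5.25 CPM in WT and at 89.1, 34.0 and 54.0 CPM in KO. The groups did not overlap, and the log2 fold change was 2.41 (standard error 0.69, edgeR adjusted p = 0.47). Among the tested regulators the next largest difference was that of *Klf1*, described beside *Epor*. *Cebpa* had too few counts to be tested, with 0, 1 and 0 in WT and 22, 19 and 7 in KO, without overlap. No gene of the ligand, receptor, signalling, target or regulator lists passed the threshold over all genes, beside 0.0719% of the genes tested. At an unadjusted p under 0.05 there were 1 of 2 ligands, 2 of 18 other receptors, 2 of 31 signalling genes, 1 of 15 targets and 2 of 13 regulators, beside 5.71% of all genes.

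**Figure D5:**
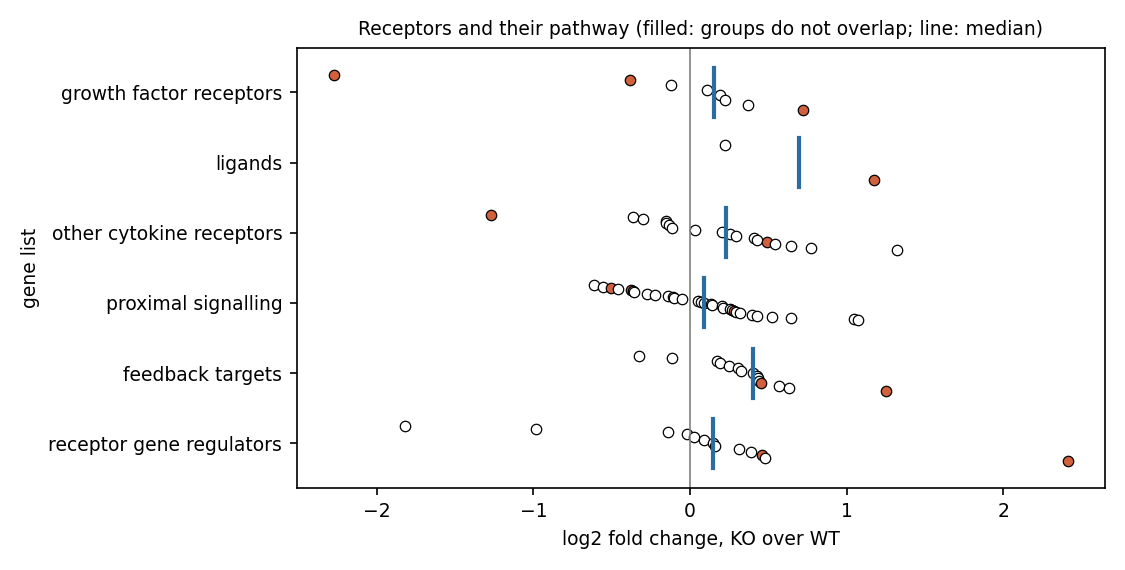
Log2 fold change, KO over WT, of each tested gene in the receptor list and 5 related lists, with filled points where the WT and KO libraries do not overlap in normalized CPM and a vertical line at the median of the list. *Epor* is the lowest point of the receptors at -2.28, and *Irf8* the highest point of the regulators at 2.41.

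Markers of other cell types were examined in the same libraries. Of 16 granulocyte and monocyte markers, 5 were tested, 2 with higher and 3 with lower estimates and a median of -0.08, and none passed. *Prtn3*, a granule protease gene, was at 104 CPM in WT and 322 CPM in KO, without overlap (log2 fold change 1.63, edgeR adjusted p = 0.065). *Mpo*, the myeloperoxidase gene, had 867 counts in KO replicate 3 and at most 23 in any other library (log2 fold change 5.24, edgeR adjusted p = 0.92). The granule protease genes *Elane* and *Ctsg*, which were not tested, had 115 and 83 counts in that library and at most 10 and 7 elsewhere. KO replicate 3 was also the highest library of *Flt3*, *Csf2rb* and *Csf2rb2*. The late granule genes were low, *Ltf* with no count and *Camp* with at most 11. The summed granulocyte and monocyte level was 489 to 657 CPM in WT and 720 to 1068 CPM in KO. This sum includes *Prtn3*, at 83.0 to 141 CPM in WT and 305 to 355 CPM in KO. It also includes *Mpo*, at 175 CPM in KO replicate 3, so the sum need not describe the other markers. The largest part of the sum was *Lyz2*, at 473 CPM in WT and 448 CPM in KO on average (log2 fold change -0.08, edgeR adjusted p = 0.997). The other lower estimates were those of *S100a9* (-0.78) and *Fcgr3* (-0.26), both with an edgeR adjusted p of 0.997. Of 12 lymphoid markers 4 were tested, 1 with a higher and 3 with lower estimates, and the sum was 397 to 648 CPM in WT and 425 to 528 CPM in KO. The largest differences were in *Cd4* (-2.41, edgeR adjusted p = 0.99), at 47 counts or fewer, and *Nkg7* (-0.88, edgeR adjusted p = 0.93), while *Cd3e*, *Cd8a*, *Pax5* and *Rag1* had no count. Skeletal muscle genes summed to 920, 1197 and 1167 counts in WT and 35, 73 and 41 in KO. Of the 11 tested, 3 (*Acta1*, *Actc1* and *Myh3*) were lower in KO past the threshold, beside 0.0719% of all genes past it in either direction. The part of these markers in the receptor differences was not tested.

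The genes whose normalized CPM followed that of *Epor* most closely over the 6 libraries were *Ecscr*, *Naa10* and *Kdelr2*, each with a Pearson r of 0.986 on the log2 scale. They were the highest of 10056 genes with a mean of at least 10 CPM, of which 103 had an r over 0.9. *Ecscr*, an endothelial surface protein gene, was at 20.3, 18.7 and 32.1 CPM in WT and 9.72, 8.37 and 12.3 CPM in KO, with WT replicate 3 highest as for *Epor*. With 6 libraries that also differ by group and depth, such likeness is a description only.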

How the data were processed

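Sorted HSCs of 3 WT and 3 KO samples were profiled by bulk RNA-seq. As raw data the authors deposited a table of counts of reads on each gene, without scaling. A second table deposited by the authors held FPKM values, which equalled the count divided by a gene length and by the column total (spread between libraries of at most 0.000861% for genes with at least 100 counts in every library). The submitters' processing notes list TopHat, HTSeq and mm10, without versions. The annotation and strand setting are not given in the sources used here. The labels name the SMART-Seq v4 kit and the study's methods the TruSeq kit, and no molecular identifiers are described. Samples were grouped by their genotype labels.

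The count table was tested with edgeR 4.0.16 in R 4.3.3 (TMM, filterByExpr, robust quasi-likelihood test, Benjamini-Hochberg adjustment over the 12513 genes tested, threshold 0.05, two-sided). Single values were compared by a two-sided exact permutation test of log2(CPM + 0.5), or of the log2 ratio. The procedure was tested on simulated data. Libraries within a group differed beyond counting error (chi-square per degree of freedom 25.7 to 53.2). Gene positions, exons and coding sequences came from GENCODE M21 (GRCm38) and promoters from RefSeq.

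Alternatives were DESeq2 1.42.0, other scalings and filters, limma 3.58.1 on log2(FPKM + 1) and log2(FPKM + 0.1), a replicate block, each library left out in turn and, added after the data were seen, both libraries numbered 3 left out and another gene length. The receptors and gene lists were chosen with earlier results of these data known. Named genes were all receptors, *Med23*, list members past the threshold or with the 2 largest fold changes of their list, and the 3 genes most like the receptor of smallest p; other marker and list genes were named after their values were seen. ATAC-seq and single-cell samples were not used here.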

Additional observations from a re-analysis of the deposited data

How the results depend on the processing

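No receptor passed the threshold under any of the 15 alternatives. The estimates of *Kit*, *Epor*, *Csf2rb* and *Csf2rb2* kept their direction in all 15. With 1 library left out, that of *Kit* lay between -0.44 and -0.28, that of *Epor* between -2.60 and -1.39 (the smallest without WT replicate 3), that of *Csf2rb* between 0.18 and 0.49 and that of *Csf2rb2* between 0.48 and 0.91. The other receptors changed sign: *Flt3* ranged from -0.35 (without KO replicate 3) to 0.50, *Csf2ra* from -0.29 to 0.039 (without KO replicate 2) and *Csf3r* from -0.15 to 0.51, the last turning without WT replicate 3 and, at -0.035, without KO replicate 1. With both libraries numbered 3 left out, the estimates of *Flt3*, *Csf3r* and *Il3ra* were -0.035, -0.088 and -0.031. The cause was not tested. The count of receptors whose groups did not overlap was 3 under every scaling and 3 to 4 with a library left out, but on CPM without TMM factors and on FPKM *Csf2rb* took the place of *Kit*.

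Over all genes 9 passed. DESeq2 gave 120, limma on log2(FPKM + 1) with a mean FPKM of at least 1 gave 15, and leaving out 1 library gave 5 to 11, the fewest without WT replicate 1. With the replicate block 5 genes and no receptor passed. Whether the replicate numbers pair the samples was not settled. The correlations of same-numbered samples were 0.170, 0.032 and 0.170, and WT replicate 2 was not closest to KO replicate 2. Between WT replicate 1 and KO replicate 3 the correlation was -0.141, and between WT replicate 3 and KO replicate 1 it was -0.173. Replicate 3 of both groups also shared its pattern of sex-linked genes. Of the 8 neighbouring receptor pairs in WT, 2 had separate ranges, 4 per kb of the longest-coding transcript, and 2 to 7 with a library left out (7 without WT replicate 3 and 2 without either of the others). The fewest counts were those of *Csf1r* (at most 39) and of *Epor* in KO (20 to 35), and whether depth limits these comparisons was not tested.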
